A study of Mus musculus with 18 samples.

Results

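The Wnt/β-catenin pathway was followed in 10 genes of serum-grown mESCs (mouse embryonic stem cells) after *Stag1* KD. They were *Csnk1a1*, *Ctnnb1*, *Gsk3b*, *Axin2*, *Lef1*, *Sp5*, *Tcf7*, *Tcf7l1*, *Nkd1* and *Cdx1*, 10 of the 18659 genes in the table, and all 10 passed the filter on low values. The set was selected on these data, because *Csnk1a1* was low in the 5p KD, and the question put to it was whether β-catenin targets moved with *Csnk1a1* in 5p and not in 3p. Values in 5p against scr and in 5p against 3p are therefore given as a description, without a p-value for any of the 10 genes. Counts of calls in these comparisons are printed beside the share of all genes called and are no test of the selected genes.

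Male E14 mESCs were grown on gelatin with FCS and LIF and were treated with siRNA for 24 h, and RNA depleted of rRNA was sequenced. The groups were scrambled siRNA (scr), SP (the SmartPool to *Stag1*), 3p and 5p (siRNAs to the 3′ and 5′ ends of *Stag1*) and SATS (enzymatically prepared siRNA to an upstream start of *Stag1*), with luciferase siRNA and untreated cells as further controls. Set 1 held 1 scr library and 3 SP libraries (1a, 1b and 1c). Sets 2 and 3 each held all of these siRNAs once, from scr to SATS, with untreated cells in set 2 and luciferase siRNA in set 3. All groups are of 1 cell line, no genotype other than this line's is given, and a transient siRNA treatment leaves part of the target mRNA in place. The paper describes the libraries as independent replicates in sets, and neither it nor the labels say whether these were separate cultures, so p-values measure the spread between these libraries, which may be partly technical.

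The values are reads per gene divided by 1 size factor per library. Set 1 held 9023224 to 14040830 reads on genes, of which the rRNA precursor *Rn45s* took 69.2% to 79.1%, and sets 2 and 3 held 32137666 to 45660840, with 14.7% to 23.9% on *Rn45s*. *Stag1* fell to 17.3% to 23.5% of scr of the same set in the SP, 3p and 5p libraries of sets 2 and 3, to 49.7% and 50.5% in SATS, and to 25.4% to 32.8% in SP of set 1. In untreated cells it stood at 86.3% and with luciferase siRNA at 104%. All 6 markers of embryonic stem cells were present, with a lowest value of 1796 (*Esrrb*) in sets 2 and 3. The 6 stem cell markers summed to 21515 to 31470 in sets 2 and 3, and the sums for other cell types were lower. Single markers of other types ran from near 0 (*Elf5*, 0 to 2.19) to 4627 (*Col1a1*), above the highest *Esrrb* value of 4255. The 5 fibroblast markers summed to 2354 to 5355 in set 2 and to 343 to 546 in set 3. The 3 trophoblast markers summed to 465.5 to 686 in set 2 and to 88.4 to 168 in set 3. The 4 mesoderm markers summed to 119 to 144 and to 153 to 274, and the 5 primitive endoderm markers to 252 to 332 and to 175 to 229. In each list 1 marker reached far higher values than the rest: *Col1a1* (155 to 4627), *Krt7* (73.1 to 567), *Eomes* (92.6 to 240) and *Dab2* (95.2 to 266). A sum may thus reflect mainly that gene. Among the other fibroblast markers, *Col1a2* (54.3 to 593) and *Prrx1* (4.76 to 25.8) varied widely as well, while *Thy1* (36.1 to 58.2) and *Twist1* (47.8 to 80.6) varied little. The 5p library was the lowest of its 6 libraries in both sets in the fibroblast sum and in the mesoderm sum. The mesoderm sum was 119 in 5p beside 142 in scr of set 2, and 153 beside 247 in set 3. In the primitive endoderm sum 5p was above scr in both sets, at 319 beside 260 and at 229 beside 177. So were SP (308 and 215) and SATS (313 and 178), while 3p was at 252 and 223. Untreated cells of set 2 were above 5p, at 332, and luciferase of set 3 was at 175. In bulk RNA, fewer cells of a type and less RNA per cell cannot be told apart, and the part of these cells in the results was not tested.

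In the Wnt pathway, β-catenin (*Ctnnb1*) is kept low by a destruction complex of Axin, APC and the kinases CK1α (*Csnk1a1*) and GSK3β (*Gsk3b*). CK1α places the priming phosphate on β-catenin, GSK3β extends it, and the marked protein is then degraded. When the complex is blocked, β-catenin enters the nucleus and joins the TCF/LEF factors (*Tcf7*, *Lef1*, *Tcf7l1*) at target genes. *Axin2*, *Nkd1*, *Sp5*, *Lef1*, *Tcf7* and *Cdx1* are known targets. *Axin2* and *Nkd1* feed back on the pathway as inhibitors. *Tcf7l1* acts mainly as a repressor and in mESCs restrains pluripotency genes such as *Nanog* and *Esrrb*. mRNA levels do not measure the β-catenin protein.

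The sequences described here are the site of the 5p siRNA and the copies of its seed match, and their part in the values was not tested. The 5p site lies in the coding part of exon 4 of *Stag1* (transcript Stag1-201), at chr9:100738040-100738058, plus strand, of GRCm38 (GENCODE M21). Its capitals mark the 7 bases that pair with bases 2 to 8 of the guide strand. The same 7 letters stand in a 3′ UTR of 4 of the 10 genes: *Csnk1a1* (1 copy, in 4 of its 8 transcripts with a 3′ UTR), *Ctnnb1*, *Lef1* and *Nkd1* (2 copies). Of all genes with a 3′ UTR in the table, 17.38% hold them (2788 of 16045). The sites of *Stag1* and of the last 3 genes read as follows, each with the 11 bases before the match and the 1 base after it.
Stag1, coding: aggagcaggtcGTGGAAGa
Ctnnb1, 3′ UTR, chr9:120959666-120959684: gatgttcatgtGTGGAAGt
Lef1, 3′ UTR, chr3:131223532-131223550: gtgtgagaattGTGGAAGa
Nkd1, 3′ UTR, chr8:88592741-88592759: ccatgcacagtGTGGAAGc
Nkd1, 3′ UTR, chr8:88594425-88594443: ctgcctagggaGTGGAAGc
A match is a description of letters and does not show that the siRNA acts there.

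RefSeq promoters (250 bases before to 50 after a start, GRCm38.p6) were searched on both strands for letters that TCF/LEF factors are known to bind, which were CTTTGAA or CTTTGAT and likewise CTTTGTA or CTTTGTT. Entries were found for 8 of the 10 genes. *Sp5* held 2 matches and *Lef1* held 1, and *Ctnnb1*, *Gsk3b*, *Axin2*, *Tcf7*, *Tcf7l1* and *Nkd1* held none in this window. Of 13429 genes with a promoter, 14.71% held at least 1 match. They are shown with 12 bases on each side, the match in capitals, because no promoter entry of the other 6 genes held one.
Sp5, 222 bases before the start, chr2:70474689-70474719: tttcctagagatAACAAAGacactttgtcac
Sp5, 104 bases before the start, chr2:70474807-70474837: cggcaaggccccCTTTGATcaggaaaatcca
Lef1, 147 bases before the start of its promoter 4, chr3:131156135-131156165: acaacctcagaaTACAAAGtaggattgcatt

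*Csnk1a1* (ENSMUSG00000024576.14, chr18:61555274-61590061) was lowest in both 5p libraries. In set 2 its value was 4085 in scr, 3704 in SP, 3802 in 3p, 2365 in 5p, 4655 in SATS and 3873 in untreated cells. In set 3 it was 3832 in scr, 3768 in SP, 3766 in 3p, 1733 in 5p, 4057 in SATS and 3855 with luciferase siRNA. Thus 5p stood at 57.9% and 45.2% of scr, while the other 8 libraries lay between 90.7% and 114% and did not overlap with it. The log2 fold change was −0.97 in 5p against scr and −0.90 in 5p against 3p.

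**Figure D1:**
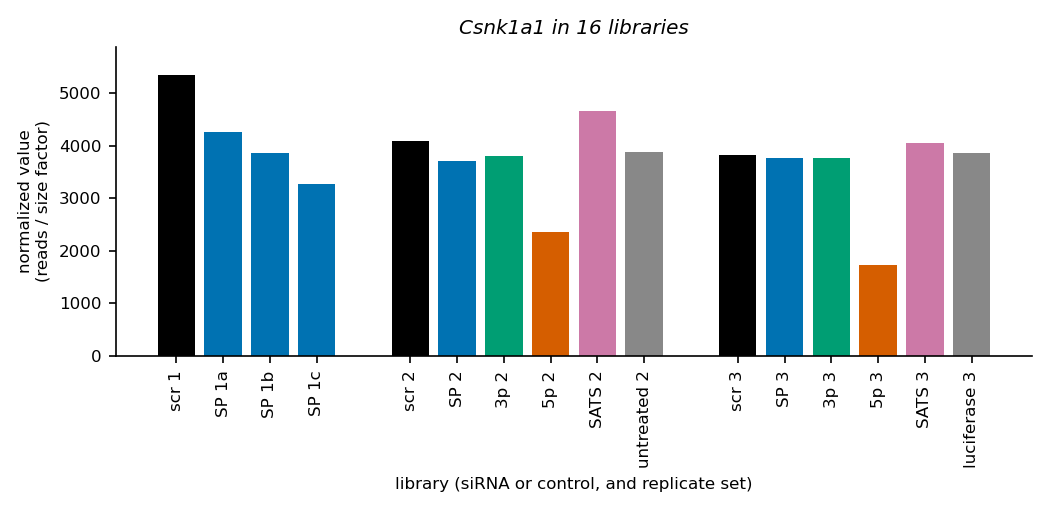
Normalized value of *Csnk1a1* (y axis, reads divided by the size factor of the library, from 0) in each of 16 libraries (x axis), 1 bar per library, coloured by siRNA and spaced by replicate set. The 5p bars, 2365 and 1733, are below all others of sets 2 and 3, and the SP bars of set 1, 3278 to 4254, are below the scr bar of that set, 5344.

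In set 1, *Csnk1a1* was 5344 in scr and 4254, 3859 and 3278 in SP 1a, 1b and 1c, on 407 to 1200 reads. All 3 SP libraries were below scr there, at 61.3% to 79.6%, while SP of sets 2 and 3 stood at 90.7% and 98.3%. Over 3 sets the log2 fold change of SP was −0.22 (SE 0.15) and did not pass (limma, Benjamini-Hochberg adjusted p = 1.00, and 0.76 with the set as a block).

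The mRNAs of β-catenin, the substrate, and of GSK3β lay between 97.2% and 114% of scr in 5p. *Ctnnb1* (ENSMUSG00000006932.17, chr9:120929216-120960507) was 11509 in scr, 11585 in SP, 11802 in 3p, 11186 in 5p and 12193 in SATS of set 2, and 11296, 11525, 11755, 11428 and 12569 in the same order in set 3. Its 5p libraries were at 97.2% and 101% of scr, and SATS was the highest library of both sets. *Gsk3b* (chr16:38089001-38246084) was 1918, 1777, 1794, 2193 and 1966 in set 2 and 1650, 1632, 1870, 1700 and 1564 in set 3, in that order. For *Gsk3b* the 5p library was above the other 5 in set 2 and within them in set 3.

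*Axin2* (ENSMUSG00000000142.15, chr11:108920349-108950783), the target most often read as output of the pathway, was not higher than scr in either 5p library. In set 2 it was 742 in scr, 689 in SP, 752 in 3p, 707 in 5p, 689 in SATS and 852 in untreated cells. In set 3 it was 492 in scr, 436 in SP, 541 in 3p, 351 in 5p, 437 in SATS and 469 with luciferase siRNA. The 5p library was within the others in set 2 and below all 5 in set 3, at 95.3% and 71.3% of scr. The log2 fold change was −0.28 in 5p against scr and −0.36 against 3p. Within each set, *Axin2* in 5p was below both scr and 3p. In the fit that ignores the sets, the values turned to 0.23 and 0.15 without 5p of set 3. Without 5p of set 2 they were −0.78 and −0.86. Against scr the log2 fold change was also 0.018 without scr of set 2 and −0.57 without scr of set 3. Against 3p it was −0.12 without 3p of set 2 and −0.59 without 3p of set 3. With 1 set left out of a group, the gap between sets enters these values.

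*Sp5* (ENSMUSG00000075304.2, chr2:70474923-70477729), a zinc finger factor induced by Wnt, was lowest in 5p in both sets. In set 2 it was 538 in scr, 491 in SP, 628 in 3p, 453 in 5p, 496 in SATS and 520 in untreated cells. In set 3 it was 484 in scr, 273 in SP, 448 in 3p, 266 in 5p, 414 in SATS and 389 with luciferase siRNA. SP was next to 5p in both sets, at 91.3% and 56.5% of scr beside 84.3% and 54.9%, and the luciferase control alone was at 80.4%. The log2 fold change of 5p was −0.55 against scr and −0.61 against 3p. Without 5p of set 3 these were −0.17 and −0.23, and without 5p of set 2 −0.94 and −0.997, and against 3p −0.37 without 3p of set 2, so the size of the change depends on the library and its direction did not.

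*Lef1* (ENSMUSG00000027985.14, chr3:131110471-131224356), a TCF/LEF factor and itself a target, was highest in 3p in both sets. In set 2 it was 435 in scr, 456 in SP, 610 in 3p, 446 in 5p, 489 in SATS and 422 in untreated cells. In set 3 it was 651 in scr, 501 in SP, 707 in 3p, 502 in 5p, 544 in SATS and 577 with luciferase siRNA. The 3p library was at 140% and 109% of scr, and 5p was at 102% and 77.1% of scr. In set 1 *Lef1* was 342 in scr and 691, 1225 and 894 in SP 1a, 1b and 1c, so SP was above scr in that set and was not in set 3.

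**Figure D2:**
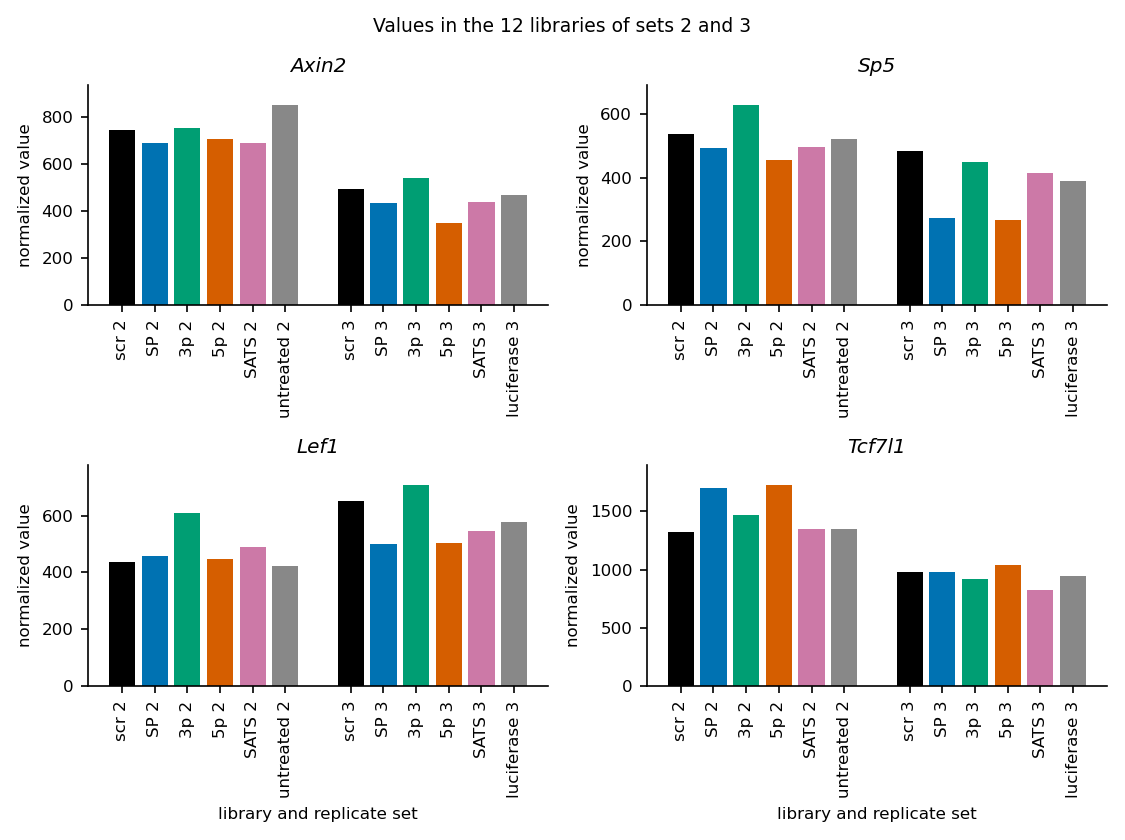
Normalized values (y axes, from 0) of *Axin2*, *Sp5*, *Lef1* and *Tcf7l1* in the 12 libraries of sets 2 and 3 (x axes), 1 bar per library, coloured by siRNA. *Sp5* is lowest and *Tcf7l1* highest in 5p in both sets, while the gap between sets is larger than that between siRNAs for *Axin2* (742 and 492 in scr).

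*Tcf7* (chr11:52252371-52283014), another TCF/LEF factor, varied little: it was 684, 660, 628, 694 and 673 in scr, SP, 3p, 5p and SATS of set 2 and 797, 644, 647, 693 and 667 in set 3. In set 3 scr was the highest library, and 3p was at 91.8% and 81.2% of scr. *Nkd1* (chr8:88521354-88594884), an inhibitor of Dishevelled, was low, at 50.3, 48.4, 59.4, 42.5 and 54.3 in set 2 and 38.9, 44.1, 65.2, 58.3 and 41.9 in set 3. In 5p *Nkd1* was below all others in set 2 and within them in set 3. *Cdx1* (chr18:61018862-61036199), a homeobox gene of the posterior embryo, was 54.1, 37.8, 51.5, 35.8 and 45.2 in set 2 and 19.8, 9.92, 26.0, 16.2 and 14.8 in set 3, and so was under 55 in each of these libraries. In 5p it was at 66.2% and 81.6% of scr, and SP was lower than scr in both sets as well.

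*Tcf7l1* (ENSMUSG00000055799.13, chr6:72626378-72789254) was the 1 gene of the 10 above all other libraries in 5p in both sets. In set 2 it was 1325 in scr, 1701 in SP, 1472 in 3p, 1727 in 5p, 1349 in SATS and 1348 in untreated cells. In set 3 it was 981 in scr, 982 in SP, 922 in 3p, 1044 in 5p, 828.7 in SATS and 944 with luciferase siRNA. The 5p library was at 130% and 106% of scr, and SP of set 2 was close to it at 128%.

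**Figure D3:**
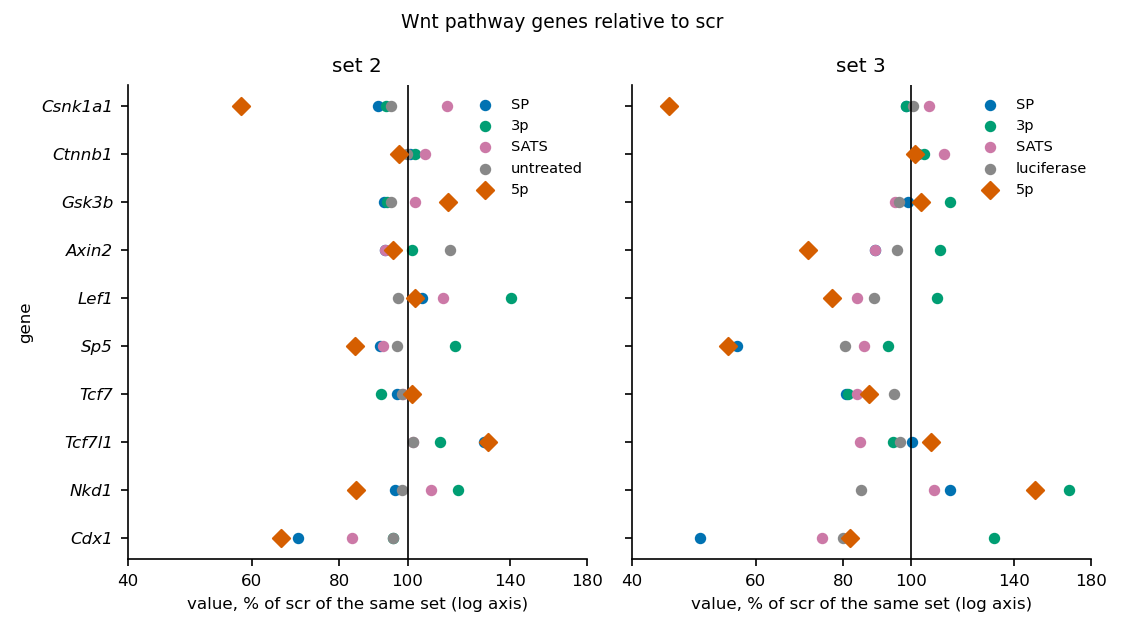
Value of each gene (y axis) as a percent of scr of the same set (x axis, log scale) in sets 2 and 3, 1 point per library, 5p as diamonds, with the line at 100%. *Csnk1a1* is the gene whose 5p diamonds, at 57.9% and 45.2%, stand apart from the other points in both sets.

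Against all 5 other libraries of the set, 5p was the lowest in both sets for *Csnk1a1* and *Sp5*, and the highest in both for *Tcf7l1*. Of all 16490 genes tested, 7.59% were lowest and 7.14% highest in 5p in both sets. Since 5p chose the genes, these counts are a description. Among controls of the same set, the untreated library lay between 94.7% (*Gsk3b*) and 115% (*Axin2*) of scr over the 10 genes, and the luciferase library between 79.8% (*Cdx1*) and 101% (*Ctnnb1*). *Ctnnb1*, *Nkd1* and *Cdx1* were lowest in 5p of set 2 only and *Axin2* in 5p of set 3 only.

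In the limma fit over the 10 libraries of the siRNA panel, without the set as a block, 0 of the 10 genes passed an adjusted p of 0.05 in 5p against scr, where 0.0121% of all genes did, and 0 passed in 5p against 3p, where 0% did. At an unadjusted p under 0.05 they were 1 and 2 genes, beside 598 and 674 of all 16490. On the recovered reads edgeR called 0 and 0, beside 2 and 0 of all 15153. DESeq2 called 1 and 1 (*Csnk1a1*, lower), beside 66 of 12403 and 88 of 13836 genes. With the set as a block, 1 of 10 was called in 5p against scr (*Csnk1a1*, lower, beside 2.37% of all genes) and 3 of 10 in 5p against 3p (*Csnk1a1*, *Lef1* and *Sp5*, lower, beside 3.26%). None of the targets among the 10 genes was called higher in 5p in any of these fits. Nothing about the genes is read from the counts, because the rule used both contrasts. Leaving out 1 library at a time with the block moved these counts between 1 and 3 in both comparisons. Over all genes, 20 to 528 were then called in 5p against scr and 84 to 650 in 5p against 3p. *Lef1* and *Sp5* lost the call against 3p without either 3p library or 5p of set 3, and *Lef1* also without 5p of set 2. The call of *Csnk1a1* was fixed by the choice of the genes and is no sign of stability.

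The rule did not name SP and SATS against scr. Its question did name 3p, so 3p against scr is not independent of the choice. These comparisons were tested, and they share the scr libraries with 5p. With 3p, 0 of 10 genes passed, both without the block (0.00606% of all genes called) and with it (0.285%). Neither edgeR nor DESeq2 called any. At an unadjusted p under 0.05 they were 0 and 3 genes in edgeR, beside 252 and 1657 of all 15153. In limma they were 0 and 3 genes, beside 286 and 1720 of all 16490, so such p-values were common over all genes. *Csnk1a1* changed by −0.06 in 3p (95% interval with the block −0.28 to 0.15, adjusted p = 0.88). A fall of the size seen in 5p lies outside that interval. Since *Csnk1a1* was chosen for its fall in 5p, this is a description. The 3 genes with an unadjusted p under 0.05 were *Lef1*, at 0.30 (0.07 to 0.53, adjusted p = 0.31), *Nkd1*, at 0.48 (0.05 to 0.92, adjusted p = 0.42), and *Tcf7*, at −0.21 (−0.40 to −0.03, adjusted p = 0.40). *Axin2* was at 0.08 (−0.16 to 0.31) and *Sp5* at 0.06 (−0.25 to 0.36), intervals that leave room for changes in either direction.

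SP in sets 2 and 3 also gave 0 of 10 genes, without the block (0.00606% of all genes) and with it (0.746%), and 0 were called by edgeR or DESeq2. At an unadjusted p under 0.05 limma gave 0 and 2 genes, beside 410 and 2061 of all 16490. The 2 genes were *Sp5*, at −0.48 (−0.78 to −0.17, adjusted p = 0.16 with the block), and *Cdx1*, at −0.72 (−1.20 to −0.23, adjusted p = 0.19). SP over 3 sets gave 0 of 10 without the block (0% of all genes called) and with it (0%), and 0 at an unadjusted p under 0.05 in either, while edgeR and DESeq2 called 0. There the spread of *Sp5* was wide, at 0.08 (SE 0.35 with the block), and set 1 rested on 4 to 15 reads of this gene. SATS gave 0 of 10 without the block (0% of all genes) and with it (2.64%), 0 at an unadjusted p under 0.05 and 0 by edgeR or DESeq2. *Csnk1a1* was at 0.14 in SATS (−0.08 to 0.35, adjusted p = 0.50 with the block).

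**Figure D4:**
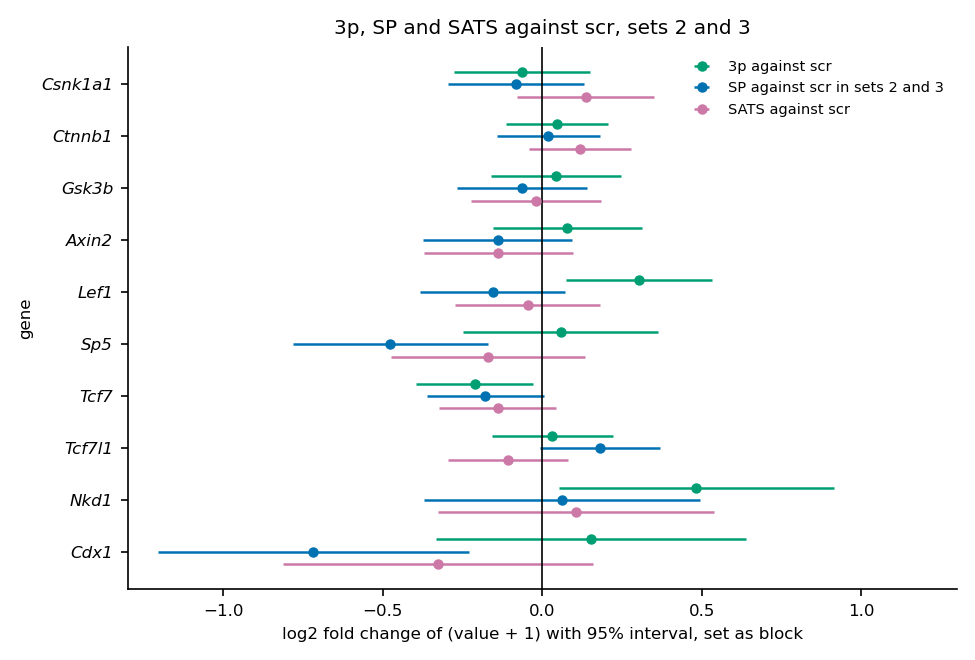
Log2 fold change of value + 1 (x axis) of each gene (y axis) in 3p, SP and SATS against scr over sets 2 and 3, with the 95% interval of the limma fit with the set as a block. *Csnk1a1* is near 0 in all 3, the intervals of *Lef1* and *Nkd1* in 3p lie above 0, and those of *Sp5* and *Cdx1* in SP lie below 0, none with an adjusted p under 0.05.

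The 2 sets differed for several of the genes in every siRNA. *Axin2* of set 3 was 49.6% to 71.9% of set 2 in the 5 siRNA groups they share, *Tcf7l1* 57.8% to 74.0% and *Cdx1* 26.2% to 50.4%, while *Csnk1a1* was 73.3% in 5p and 87.2% to 102% in the other 4. Each gene's change is therefore given against scr of its own set, and the plain fit, which ignores the sets, has wide errors for *Axin2* (SE 0.41) and *Cdx1* (SE 0.82).

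Per kilobase of exon, with the median over the 12 libraries of sets 2 and 3, *Ctnnb1* was highest at 2218, followed by *Csnk1a1* at 363, *Tcf7l1* at 302, *Tcf7* at 256, *Sp5* at 223, *Gsk3b* at 182, *Axin2* at 112, *Lef1* at 57.1, *Cdx1* at 17.7 and *Nkd1* at 10.7. These are levels and not changes. The ranges of neighbours overlapped from *Csnk1a1* through *Gsk3b*, between *Axin2* and *Lef1* and between *Cdx1* and *Nkd1*. *Ctnnb1* stood clear of *Csnk1a1*, *Gsk3b* of *Axin2*, and *Lef1* of *Cdx1*.

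Over the 12 libraries, with each set centred on its mean, the 5 genes most like *Csnk1a1* among 11025 with a mean of at least 50 were *Selt* (r = 0.99), *Tmem168* (0.99), *Fam179b* (0.99), *Uso1* (0.97) and *Akirin2* (0.97). *Selt* was at 45.4% and 27.9% of scr in 5p of sets 2 and 3, and *Tmem168* at 39.5% and 32.5%. These points share their libraries, the 5p pair included. The 5 most like *Axin2* were *Il17rd* (0.91), *Lnpep* (0.91), *Zfp420* (0.90), *Flnc* (0.89) and *Lrp10* (0.88). Among the 10 genes with a mean of at least 50, *Csnk1a1* went with *Axin2* at r = 0.61 (place 1081 of the 11025), *Sp5* at 0.59, *Ctnnb1* at 0.49, *Lef1* at 0.34, *Tcf7* at −0.04, *Gsk3b* at −0.40 and *Tcf7l1* at −0.66. *Axin2* went with *Sp5* at 0.72. The 5p pair by which the genes were chosen is in all of these values.

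The wider pathway was described with 8 lists of 115 genes, 114 of them in the table. Without the block no list gene was called by limma in any of the 6 comparisons. Only 0% to 0.0121% of all genes were called in those fits, so this says little about the lists. The share of all genes called with the block, in either direction, is the background for each list: 2.37% in 5p against scr, 3.26% in 5p against 3p, 0.285% in 3p, 0.746% in SP of sets 2 and 3 and 2.64% in SATS. Lists were not tested as sets. With the block, the destruction complex and its kinases had 2 of 20 genes lower in 5p against scr (background 2.37%), *Csnk1a1*, by which the genes were chosen, and *Tnks2* (log2 fold change −0.53), a tankyrase that marks Axin for degradation. Their median was −0.02, beside 0.01 over all genes. *Tnks2* was 7488 in scr and 5738 in 5p of set 2, and 9419 and 5869 in set 3, lower in both. In 3p 0 of 20 were called, in SP 0, and in SATS 2 lower, *Csnk1g1* (−0.59), a casein kinase 1 of the γ type, and *Tnks* (−0.38), the other tankyrase.

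Among 21 β-catenin targets, 5p against scr had 0 higher and 1 lower, *Ccnd1* (−0.47), the cyclin D1 gene, a share near the background of 2.37%, with a median of −0.09. *Ccnd1* was 81.5% and 63.9% of scr in 5p, and 86.6% and 69.0% in 3p. In 5p against 3p 1 was higher, *Notum* (0.65), a secreted enzyme that inactivates Wnt, and 3 were lower, *Lef1*, *Sp5* and *Rnf43* (−0.79), a ubiquitin ligase that removes Wnt receptors. In 3p 0 of 21 were called (median 0.09) and in SP 0 (−0.15 in sets 2 and 3). In SATS 1 was lower, *Ccnd1* (−0.39), and the median was −0.14, further below 0 than in 5p. *Myc* was not called, at 93.1% and 67.0% of scr in 5p.

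Among 13 TCF/LEF factors and partners, 0 were called in 5p against scr. *Bcl9*, a coactivator that binds β-catenin, was lower in 3p (−0.51) and SP (−0.42), higher in 5p than in 3p (0.86), and at 134% and 120% of scr in 5p. In SATS 0 were called. Of 5 pluripotency genes that *Tcf7l1* represses, 0 were called in 5p against scr or in 3p. *Tfcp2l1*, a naive pluripotency factor, was lower in SP (−0.49) and SATS (−0.58), and *Nr5a2*, a nuclear receptor, was higher in 5p than in 3p (0.45). All 5 were below scr in the fitted change in 3p, with a median of −0.38. The same held in SP of sets 2 and 3 (median −0.38), in SATS (−0.28) and in SP over 3 sets (−0.65). In 5p 3 were below scr and 2 above, with a median of −0.07.

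Among 20 ligands and genes of their release, 5p against scr had 4 lower (background 2.37%), *Wnt6* (−0.67), *Wnt7a* (−0.91), *Wnt7b* (−0.43) and *Wnt10a* (−0.94), and 0 higher, with a median of −0.14. *Wnt6* was 166 in scr and 122 in 5p of set 2, and 108 and 58.3 in set 3. *Wnt7a* was 134 and 88.3, then 52.8 and 22.2, and *Wnt7b*, the most abundant of the 4, was 691 and 552, then 306 and 210, lower in 5p in each set. *Wnt7b* was also lower in 3p (−0.57), at 71.8% and 63.4% of scr. In 3p the fitted change was above 0 for 16 of the 20 and below 0 for 4, with a median of 0.21, and *Wnt7b* was the 1 called. Against 3p, 4 were lower in 5p, *Wnt5b*, *Wnt6*, *Wnt7a* and *Wnt10a*, and 1 of the 20 was above 0 and 19 below, with a median of −0.27. In SP 1 was lower, *Wnt2b* (−0.90), and in SATS 0 were called.

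Among 17 receptors, *Fzd6* (0.49) was higher and *Fzd2* (−0.35) lower in 5p against scr, both Frizzled receptors (background 2.37%), with a median of 0.10 and 13 of 17 above 0. In SATS *Fzd6* was lower (−0.65), in 3p and SP 0 were called, and *Fzd2* was lower in 5p than in 3p (−0.39). Among 10 secreted inhibitors 0 were called in 5p, 3p, SP or SATS against scr, and *Sfrp4* was lower in 5p than in 3p (−0.86). Among 10 p53 targets, followed as a list outside the pathway, 0 were called in 5p or SP, *Cdkn1a* (0.49) was higher in 3p, and in SATS *Ccng1* was higher (0.44) and *Eda2r* lower (−0.54). In SP over 3 sets 0 genes of all 8 lists were called with the block, where 0 of all 15970 genes were. *Stag1* itself (log2 fold change −2.15) was not called there, so this count says nothing about the lists. Comparisons against scr share the scr libraries, so their values are side by side and not independent.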

How the data were processed

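RNA-seq of 16 libraries of serum-grown mESCs was used. The 2 samples from 2i culture were not used here. According to the methods and the submitters' processing notes, HISAT2 (genome mm10) and featureCounts gave reads per gene, which the authors divided by size factors from DESeq2 (1.14.1) and deposited as a normalized signal. A second deposited table, of set 1 only, was not used. Dividing by the value of 1 read gave whole reads for 100% of the values (tolerance 0.01), and 0 columns were left unmapped.

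Of the deposited signal, log2(value + 1) was fitted with limma 3.58.1 (R 4.3.3, lmFit, eBayes with trend) over genes whose values summed to 10 or more, 16490 in the panel of 10 libraries and 15970 in SP over 3 sets, where the SP libraries of set 1 were averaged. Changes of low genes are understated on this scale. Calls needed a p under 0.05 after Benjamini-Hochberg adjustment. Alternatives used edgeR 4.0.16, DESeq2 1.42.0 and the set as a block. Same-numbered libraries deviated together (correlation 0.77 to 0.82 in SP, 0.81 to 0.93 in the panel). The sets, numbered in the labels, were therefore taken as pairs in the fits with the block. The other fits, DESeq2 included, did not use the sets. The fits were tested on simulated data.

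The members, the gene lists and the tests were chosen with earlier results of these data known. Genes named were the 10 members, list genes called in any panel comparison, at most 4 further genes a list with the highest mean, the 5 genes most like *Csnk1a1* and *Axin2*, *Stag1* and *Rn45s*. Gene positions are from GENCODE M21 (GRCm38). Depth bounds counting error only.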

Additional observations from a re-analysis of the deposited data

How the results depend on the processing

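Each log2 fold change was recomputed under 14 to 20 settings. For 5p against scr the count of genes called was 0 of 10 without the block. It became 1 with the replicate block (beside 391 of all 16490 genes) and 1 with edgeR and the block (389 of 15153). With DESeq2 it was 1 (66 of 12403). With untreated and luciferase among the controls it was 1 (27 of 16684), and 2 with the block as well (1119 of 16684). For 5p against 3p it became 3, 3 and 1 in the first 3 of these, beside 537 of 16490, 523 of 15153 and 88 of 13836. Leaving out 1 library, both counts stayed 0 to 0 without the block, and with it (an alternative chosen after seeing the data) reached 1 to 3 and 1 to 3. The block changed no other call of the 10 genes. In the tested comparisons 0 genes were called under any setting and 52 signs turned, all of uncalled changes, and in the 5p comparisons 16 turned, likewise uncalled. Over all settings 5p against scr ran from −0.78 to 0.23 for *Axin2*, −0.46 to 0.12 for *Lef1*, −0.94 to −0.17 for *Sp5* and −1.19 to −0.74 for *Csnk1a1*. In SP over 3 sets *Axin2* turned to −0.080 (edgeR), −0.065 (edgeR with the block), −0.061 (DESeq2) and −0.11 (SP 1b alone). *Sp5* turned to −0.43, −0.42 and −0.37 in the same 3 fits and to −0.22 and −0.23 with SP 1a or 1b alone. *Gsk3b* turned to 0.022 and *Nkd1* to 0.13 with SP 1c alone, *Nkd1* to 0.030 in edgeR with the block, and *Cdx1* to 0.16 with SP 1a alone. In SATS, with the added controls, *Gsk3b* turned to 0.014 and *Lef1* to 0.0085. Leaving out 1 set gave, in SP over 3 sets, −0.067 to 0.019 for *Ctnnb1*, −0.14 to 0.22 for *Axin2*, −0.16 to 0.76 for *Lef1*, −0.48 to 0.52 for *Sp5*, −0.13 to 0.061 for *Nkd1* and −0.72 to 0.31 for *Cdx1*. Leaving out 1 library without the block gave, in SP of sets 2 and 3, −0.17 to 0.045 for *Gsk3b*, −0.47 to 0.19 for *Axin2*, −0.45 to 0.13 for *Lef1*, −0.21 to 0.58 for *Tcf7l1*, −0.12 to 0.24 for *Nkd1* and −1.63 to 0.20 for *Cdx1*. In 3p it gave −0.066 to 0.15 for *Gsk3b*, −0.22 to 0.37 for *Axin2*, −0.19 to 0.30 for *Sp5*, −0.31 to 0.37 for *Tcf7l1* and −0.55 to 0.85 for *Cdx1*. In SATS it gave −0.19 to 0.14 for *Gsk3b*, −0.47 to 0.19 for *Axin2*, −0.34 to 0.24 for *Lef1*, −0.46 to 0.24 for *Tcf7l1*, −0.077 to 0.29 for *Nkd1* and −1.10 to 0.45 for *Cdx1*. A lone library is assumed to vary like the other groups, and without the block its set goes with it. The cause of these turns was not tested. With 2 libraries a group, and 1 to 15 reads of *Sp5* and *Cdx1* in set 1, small changes of these genes cannot be seen.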
